A study of Homo sapiens with 6 samples.

Results

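The genes described here make sterols, fatty acids and glycerolipids, or control how much of these a cell makes. They were chosen by name, as 41 genes of the mevalonate and sterol pathways, of SREBP regulation and of lipogenesis, and not by their counts. Earlier results of these data were known when the choice was made. All 41 were among the 16720 named rows of the counts table, and 40 passed the filter on low counts. The exception was THRSP, a lipogenic gene of liver, whose highest level was 0.259 CPM in sgControl library 3.

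RNA was sequenced from Hep3B, an established line of human hepatocellular carcinoma cells, as 3 libraries of the control guide group (sgControl) and 3 of the RFX6 knockout group (sgRFX6). RFX6 is a transcription factor of the regulatory factor X family, and the question asked of these libraries was what its loss does in such cells. Cas9 and the guide were delivered by lentivirus, cells were selected with puromycin and clones grown from single cells were picked, so a difference between clones and an effect of the knockout cannot be told apart. Replicates are numbered in the labels without saying whether they were separate cultures, and p-values then measure only the spread between these libraries.

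Cholesterol is built from acetyl-CoA through mevalonate, farnesyl pyrophosphate, squalene and lanosterol. When sterols are scarce in the endoplasmic reticulum, SCAP escorts the precursors of the SREBP transcription factors to the Golgi, where they are cut and released to the nucleus. INSIG proteins hold SCAP back when sterols are plentiful. Liver cells use the same transcription factors, with the SREBF1 products leaning towards fatty acids and SREBF2 towards sterols.

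The libraries held between 16730374 and 25070770 counts, and 3 counts corresponded to between 0.122 and 0.189 CPM, counts scaled to library size with edgeR's TMM factors. RFX6 itself measured 5.64, 5.83 and 7.34 CPM in sgControl and 3.43, 3.71 and 3.50 CPM in sgRFX6, a log2 fold change of -0.82 that did not pass edgeR's test (adjusted p = 0.142). The paper reports checking its knockout by western blot and real-time PCR, and the counts here do not measure the protein. Of 10 hepatocyte markers all were counted, with a summed level of 302 to 337 CPM in sgControl and 234 to 253 CPM in sgRFX6. HNF4A (between 109 and 161 CPM) and APOB had the highest sgControl means of the list, while AFP, TF, APOA1 and TTR had means of at most 2.17 CPM there. APOB had a mean of 66.6 CPM in sgControl and 27.1 CPM in sgRFX6 (log2 fold change -1.29, edgeR adjusted p = 0.116). AFP (log2 fold change 2.82) and FGB (-2.45) passed the test. The fibroblast list summed to between 24.5 and 33.1 CPM in sgControl and between 21.3 and 56.2 CPM in sgRFX6. COL1A1 (-2.08) and COL1A2 (-3.71) of that list passed the test, and LUM made up 54.7 CPM of the sum in sgRFX6 library 3. Endothelial markers summed to 11.6 to 19.6 CPM, of which PECAM1 made up 11.4 to 19.3 CPM. Leukocyte markers summed to 62.7 to 159 CPM, of which CD68 made up 61 to 157 CPM. The other leukocyte markers, PTPRC, CD3E and CD14, were each at most 1.82 CPM in any library. No listed marker was at 0 in every library, and CDH5 is not analysed here. The part of these markers in the members' values was not tested.

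Promoter sequence of members was read from RefSeq (GRCh38.p14), which had an entry for 35 of the 41. The 250 bases before each start were searched on both strands. CCAAT, the letters that the factor NF-Y binds beside SREBPs at many sterol genes, stood in 21 of 35 members (60%) and in 12 of the 14 sterol enzymes with an entry, beside 33% of 27305 promoters. GTTGCC, one arm of the X-box that RFX factors bind, stood in 5 members (HMGCS1, MSMO1, PMVK, SCD and STARD4; 14.3%), beside 10.1% of all promoters. CACGTG, the E-box, stood in 4 (11.4%, beside 6.49%), and TCACCCCAC, the core of the sterol regulatory element, in SREBF2 alone (2.86%, beside 0.348%). A match is a description of the letters and not a bound site. Only these exact letters were searched, so a missing match does not show that a member lacks the element. No motif overlapped another in the stretches below. They belong to HMGCS1, an early enzyme whose window holds an X-box arm, and to FDPS and INSIG1, whose groups did not overlap. The last belongs to SREBF2, the regulator whose window matched the sterol element core. Each runs 5′ to 3′ on the gene's own strand and stops where the first annotated exon begins, and capitals mark these motifs on either strand. The stretches are thus shorter than the 250 bases searched, and the E-box of INSIG1 and further CCAAT matches of HMGCS1 and FDPS lie in the part not shown. They lie at chr5:43313513-43313662 (minus strand), chr1:155308616-155308747 (plus), chr7:155297628-155297775 (plus) and chr22:41832855-41833078 (plus).
HMGCS1: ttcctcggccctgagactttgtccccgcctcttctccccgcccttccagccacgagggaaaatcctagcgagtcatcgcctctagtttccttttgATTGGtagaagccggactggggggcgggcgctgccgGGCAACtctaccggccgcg
FDPS: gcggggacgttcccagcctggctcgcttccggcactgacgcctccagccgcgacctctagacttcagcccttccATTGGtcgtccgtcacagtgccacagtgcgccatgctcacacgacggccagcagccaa
INSIG1: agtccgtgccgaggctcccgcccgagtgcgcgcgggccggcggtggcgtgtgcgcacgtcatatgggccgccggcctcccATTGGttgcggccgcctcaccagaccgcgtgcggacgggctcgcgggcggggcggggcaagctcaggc
SREBF2: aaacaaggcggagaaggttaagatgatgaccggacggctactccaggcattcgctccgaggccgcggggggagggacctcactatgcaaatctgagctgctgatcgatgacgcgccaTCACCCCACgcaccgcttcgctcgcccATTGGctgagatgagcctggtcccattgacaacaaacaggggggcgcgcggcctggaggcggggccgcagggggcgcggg
The HMGCS1 stretch carries both a CCAAT and a GTTGCC, each on the opposite strand. In SREBF2, the sterol element core and the CCAAT lie close together.

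In the comparison of sgRFX6 with sgControl, no member passed edgeR's quasi-likelihood test at an adjusted p under 0.05 (0 of 40), beside 3.74% of the 12839 genes tested. At an unadjusted p under 0.05 there were 3 members, FDPS, INSIG1 and DGAT2, beside 15.6% of all genes. DESeq2 called 1 member (DGAT2), beside 6.44% of its genes. Limma-voom with sample quality weights called 11, of which 7 were higher and 4 lower in sgRFX6, beside 31.1% of all genes. That method gave sgRFX6 library 3 a weight of 0.168 and sgControl library 2 a weight of 0.292, beside 1.08 to 3.8 for the rest.

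The members' log2 fold changes ran from -0.51 (FDPS) to 0.88 (DGAT2) with a median of -0.004, beside a median of 0.02 over all genes. Of the 40, 19 were positive and 21 negative, 36 were under 0.5 in size, and for 34 the 95% interval lay within 1 log2 unit of no change. The groups did not overlap for INSIG1 and DGAT2, which were higher in all sgRFX6 libraries, and for FDPS, which was lower. Over all genes, 12.0% lay wholly above and 11.2% wholly below.

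**Figure D1:**
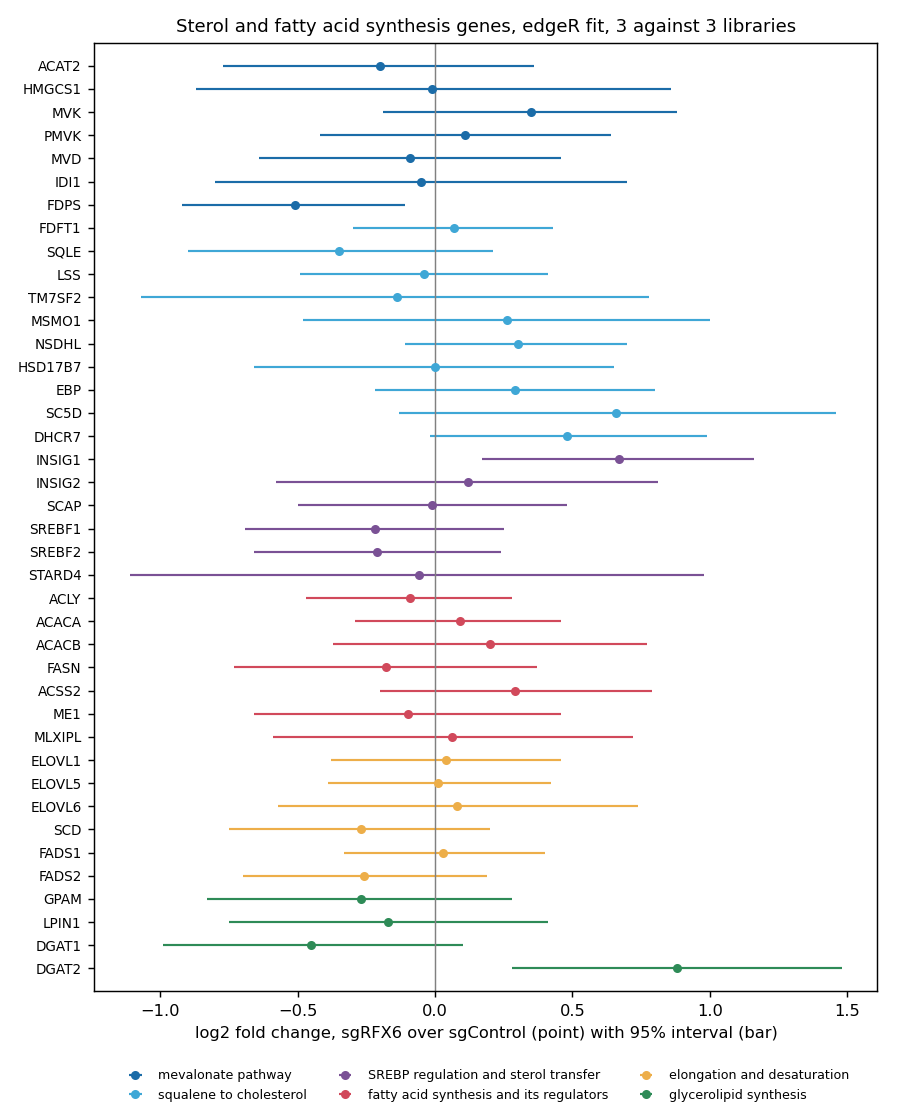
Log2 fold change of sgRFX6 over sgControl (x axis) for the 40 tested members (y axis), coloured by role, with points for the edgeR estimate and bars for its 95% interval, 3 libraries a group. The intervals of FDPS, INSIG1 and DGAT2 leave out 0, and no member passed the test after adjustment over 12839 genes.

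The 7 genes that lead from acetyl-CoA to farnesyl pyrophosphate had a median log2 fold change of -0.05, with 2 positive and 5 negative. FDPS makes farnesyl pyrophosphate, the branch point to sterols, ubiquinone and protein prenylation, and lies on chromosome 1 of GRCh38 from 155308748 to 155320666. It measured 253, 273 and 263 CPM in sgControl, a mean of 263 ± 10.3 (SD, n = 3), and 203, 204 and 146 CPM in sgRFX6, a mean of 184 ± 33.1. The highest sgRFX6 library stayed below the lowest sgControl library, and sgRFX6 library 3 was the lowest. The log2 fold change was -0.51 (SE 0.18, edgeR adjusted p = 0.189), and the two-sided exact permutation p of 0.1 is the smallest that 3 against 3 libraries allow. GENCODE lists several processed copies of FDPS, and how reads that match both were counted is not given in the sources used here.

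HMGCS1, the HMG-CoA synthase, measured 79.5, 26.3 and 50.5 CPM in sgControl and 39.8, 45.8 and 70.0 CPM in sgRFX6. The sgControl libraries alone spanned more than the whole sgRFX6 range, and the log2 fold change was -0.01 (SE 0.38, adjusted p = 0.997). Its sign depended on single libraries, with values from -0.33 without sgControl library 2 to 0.43 without sgControl library 1. ACAT2 (-0.20), MVD (-0.09) and IDI1 (-0.05), a thiolase, a decarboxylase and an isomerase, were negative, and the kinases MVK (0.35) and PMVK (0.11) positive, with overlapping groups in each case.

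From squalene to cholesterol, the 10 enzymes had a median of 0.16 with 6 positive and 4 negative, and the groups overlapped for every one. SQLE, the squalene epoxidase, measured 191, 98.1 and 135 CPM in sgControl and 105, 102 and 127 CPM in sgRFX6. Only sgControl libraries 1 and 3 lay above the sgRFX6 range, and the log2 fold change was -0.35 (SE 0.25, adjusted p = 0.58). DHCR7, the last reductase of the pathway, gave 182, 131 and 180 CPM against 242, 276 and 171 CPM, with a log2 fold change of 0.48 (SE 0.22, adjusted p = 0.354). SC5D, the desaturase before it, gave 0.66 with an interval from -0.13 to 1.46. MSMO1 (0.26) and NSDHL (0.30), which remove methyl groups from lanosterol, and EBP (0.29), a sterol isomerase, were positive. LSS (-0.04), FDFT1 (0.07) and HSD17B7 (-0.002) were close to 0, and TM7SF2, a sterol reductase, had the widest interval of the stretch, from -1.07 to 0.78. HSD17B7, like FDPS, has pseudogene copies in GENCODE.

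Among the 6 genes of SREBP regulation and sterol transfer the median was -0.04. INSIG1, which retains SCAP and is itself a target of SREBPs, measured 58.1, 35.1 and 39.9 CPM in sgControl (mean 44.4 ± 12.1) and 68.7, 67.7 and 75.1 CPM in sgRFX6 (mean 70.5 ± 4.01). All sgRFX6 libraries were above all sgControl libraries and close to each other. The log2 fold change was 0.67 (SE 0.22, adjusted p = 0.161, exact permutation p = 0.1). INSIG1 lies on chromosome 7 from 155297776 to 155310235, and the median log2 fold change of the 50 tested genes around it was 0.40. With that median removed, INSIG1 gave 0.27 (adjusted p = 0.767).

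SREBF1, which encodes SREBP-1, measured 532, 635 and 537 CPM in sgControl and 598, 495 and 371 CPM in sgRFX6, with a log2 fold change of -0.22 (SE 0.21, adjusted p = 0.71). SREBF2, which encodes SREBP-2, measured 238, 296 and 225 CPM against 246, 237 and 173 CPM, with -0.21 (SE 0.20, adjusted p = 0.705). In both genes sgRFX6 library 3 was the lowest and sgControl library 2 the highest of the 6. An antisense gene, SREBF2-AS1, overlaps the start of SREBF2, and whether the counts used strand is not given in the sources used here.

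SCAP, the escort protein, measured 170, 174 and 187 CPM in sgControl and 195, 211 and 123 CPM in sgRFX6, so that the sgRFX6 libraries lay on both sides of the controls (log2 fold change -0.01, SE 0.22, adjusted p = 0.993). INSIG2, the second retention protein, was low, at 6.36, 7.09 and 8.03 CPM against 6.41, 5.78 and 11.1 CPM, with 0.12 (SE 0.31, adjusted p = 0.921). STARD4, a sterol carrier, gave -0.06 with an interval from -1.11 to 0.98, the widest of all members. For SCAP, INSIG2 and STARD4 these libraries could therefore not fix a direction.

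The 7 tested members in fatty acid synthesis and its regulators had a median of 0.06, with 4 positive and 3 negative. ACLY, which makes cytosolic acetyl-CoA from citrate, measured 564, 518 and 584 CPM in sgControl and 559, 545 and 458 CPM in sgRFX6 (log2 fold change -0.09, SE 0.17, adjusted p = 0.873). ACACA, the carboxylase that makes malonyl-CoA, measured 306, 253 and 250 CPM against 308, 263 and 290 CPM (0.09, SE 0.16, adjusted p = 0.885). The intervals, from -0.47 to 0.28 for ACLY and from -0.29 to 0.46 for ACACA, were among the narrower ones.

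FASN, the fatty acid synthase, measured 2579, 1913 and 2547 CPM in sgControl and 2332, 2414 and 1489 CPM in sgRFX6. It overlapped between groups, with sgRFX6 library 3 the lowest (log2 fold change -0.18, SE 0.24, adjusted p = 0.825), and without that library the value was 0.02. ACACB (0.20), the carboxylase of mitochondria, ACSS2 (0.29), which activates acetate, ME1 (-0.10), a source of NADPH, and MLXIPL (0.06), the carbohydrate-responsive factor ChREBP, also overlapped.

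Elongases and desaturases had the narrowest spread of the 6 roles, with 6 log2 fold changes between -0.27 and 0.08 and a median of 0.02. SCD, the delta-9 desaturase, measured 1266, 1146 and 1035 CPM in sgControl and 1110, 728 and 1011 CPM in sgRFX6, with sgRFX6 library 2 the lowest (-0.27, SE 0.21, adjusted p = 0.608). FADS1 (0.03) and FADS2 (-0.26), the desaturases of polyunsaturated fatty acids, and ELOVL1 (0.04), ELOVL5 (0.01) and ELOVL6 (0.08) overlapped between groups. SCD has a pseudogene copy in GENCODE.

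In glycerolipid synthesis the acyltransferases of the last step pointed in opposite directions. DGAT2 measured 10.4, 17.1 and 11.2 CPM in sgControl (mean 12.9 ± 3.67) and 25.0, 26.8 and 19.6 CPM in sgRFX6 (mean 23.8 ± 3.75), 1.84-fold higher by the fit. Every sgRFX6 library was above every sgControl library. Its log2 fold change of 0.88 (SE 0.27) had an edgeR adjusted p of 0.127, a DESeq2 adjusted p of 0.0375 and an exact permutation p of 0.1. DGAT2 lies on chromosome 11 from 75759512 to 75801535, where the 50 tested genes around it had a median of 0.37, and with that removed the value was 0.51 (adjusted p = 0.519).

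DGAT1, an enzyme of the same reaction with an unrelated sequence, measured 94.3, 131 and 103 CPM in sgControl and 87.6, 98.4 and 55.3 CPM in sgRFX6. The groups overlapped through sgRFX6 library 2, and the log2 fold change was -0.45 (SE 0.24, adjusted p = 0.438). The earlier enzymes GPAM (-0.27), which acylates glycerol phosphate, and LPIN1 (-0.17), a phosphatidate phosphatase, overlapped as well.

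Libraries of the same group differed along the GC content of transcripts, over all genes and among the members. Over all tested genes with a GC value, deviations from the group mean had Spearman correlations with GC of -0.863 in sgRFX6 library 3 and 0.735 in library 2. In sgControl they were 0.419 in library 2 and -0.579 in library 1. Between sgRFX6 libraries 3 and 2, the members' log2 ratios had a Spearman correlation of -0.88 with GC content, and between sgControl libraries 2 and 1 one of 0.57 (40 members, points that share their libraries). A fit with each library's GC trend removed took these to 0.30 and 0.11. Under it 3 members passed the test, beside 11.3% of all genes, namely FDPS (-0.51, adjusted p = 0.0196), DGAT1 (-0.43, adjusted p = 0.0385) and DGAT2 (0.91, adjusted p = 0.0112). INSIG1 gave 0.65 with an adjusted p of 0.0582.

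**Figure D2:**
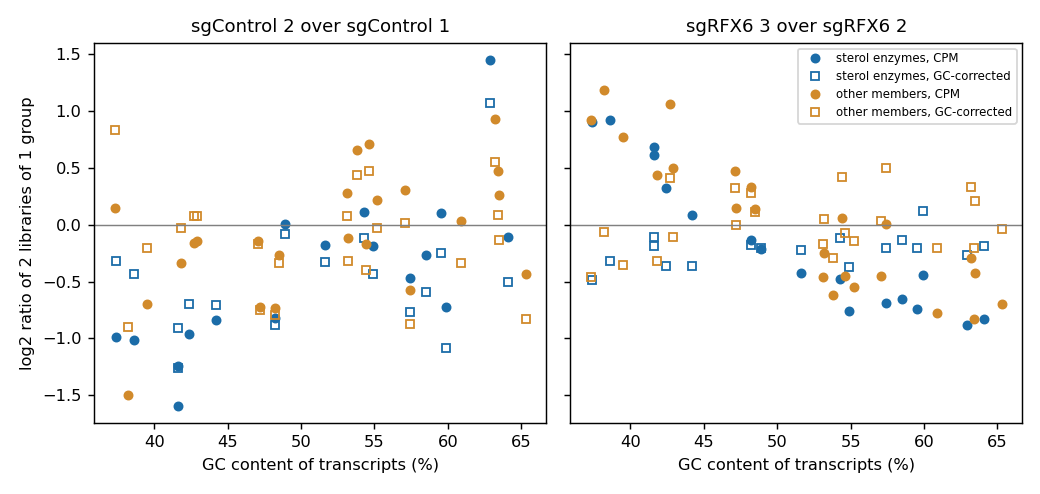
Log2 ratio between a pair of libraries of 1 group (y axis) against transcript GC content in percent (x axis) for the 40 tested members, as CPM (filled circles) and after the GC correction (open squares), sterol enzymes in blue. The filled points slope down for sgRFX6 library 3 over 2 (Spearman -0.88) and up for sgControl library 2 over 1 (0.57), and the open squares slope weakly up in both (0.30 and 0.11).

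After the correction the sgRFX6 libraries were close together in each of these genes. DGAT2 stood at 11.2, 15.5 and 11.3 CPM in sgControl and 23.5, 24.6 and 23.4 CPM in sgRFX6. For DGAT1 the corrected levels were 105, 111 and 105 CPM against 78.8, 85.3 and 74.1 CPM, so that the groups no longer overlapped. FDPS stood at 270, 249 and 264 CPM against 190, 188 and 173 CPM. Of all members 6 lay wholly above and 4 wholly below sgControl on this scale, beside 17.2% and 16.3% of all genes. With the replicate number as a block and the same correction, DGAT2 alone passed (0.93, adjusted p = 0.0251), beside 6.71% of all genes.

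**Figure D3:**
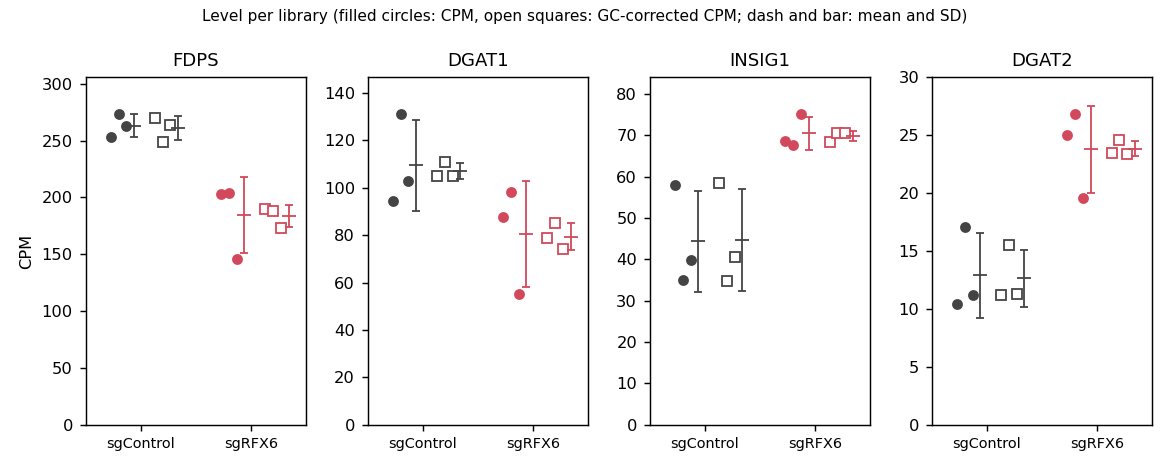
Level in each library (y axis, CPM from 0) for FDPS, DGAT1, INSIG1 and DGAT2 by group, with filled circles for CPM, open squares for GC-corrected CPM, and a dash with a bar for the mean and SD of 3 libraries. FDPS is lower and INSIG1 and DGAT2 are higher in every sgRFX6 library on both scales, and DGAT1 separates only after the correction.

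The sterol enzymes often shared their lowest library within a group. Of 17, 12 had their lowest sgControl level in library 2 (70.6%, beside 42.5% of all genes), and after the GC correction 15 of 17 did (88.2%, beside 47.2%). Their median log2 ratio of sgControl library 2 over library 1 was -0.47, and -0.50 after the correction, while the fatty acid and glycerolipid genes gave -0.14 and -0.03. In sgRFX6, 11 of 17 were lowest in library 3, beside 6118 of 12839 genes, and after the correction 12 of 17, beside 5407 of 12839. These patterns were noticed in the data and are a description. The sterol enzymes' median range across sgControl was 0.72 on the log2 scale and 0.62 after the correction, and across sgRFX6 it was 0.68 and 0.23. Their median log2 fold change between groups was -0.002 with all libraries and 0.26 without sgControl library 1. That of the fatty acid and glycerolipid genes was 0.01. The sgControl library 2 was also the deepest of its group, and the part of depth in this was not tested.

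**Figure D4:**
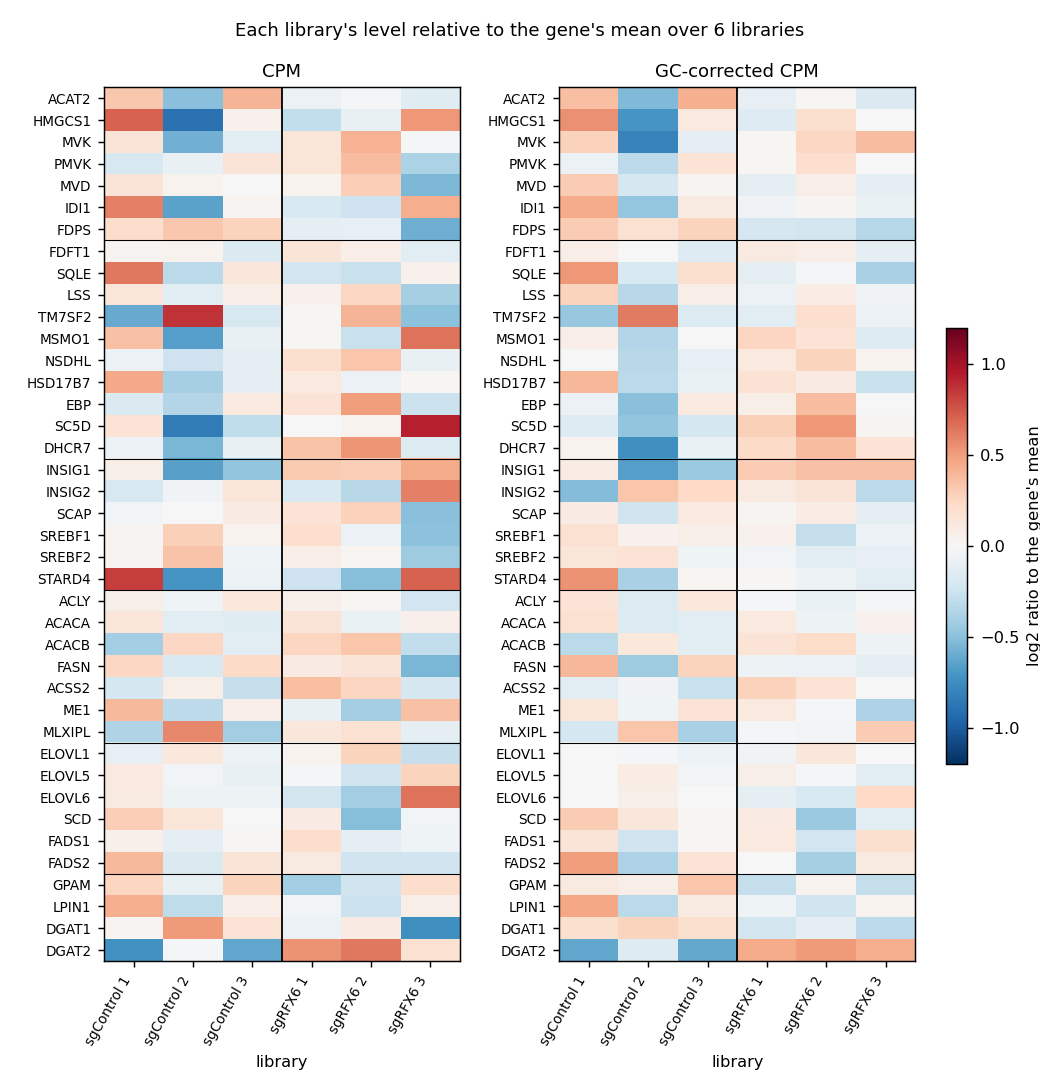
Log2 ratio of each library's level to the gene's mean over 6 libraries (colour, red above and blue below) for the 40 tested members in rows ordered by role, as CPM (left) and GC-corrected CPM (right), with libraries in columns and a vertical line between the groups. The blue run of sterol enzymes in sgControl library 2 remains in the right panel (lowest of the controls in 15 of 17), while the sgRFX6 columns lie closer together there (median range of the sterol enzymes 0.23, beside 0.68 in the left panel).

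By position, 8 tested members lie on chromosomes 7 and 11 (INSIG1, MLXIPL, TM7SF2, SC5D, DHCR7, FADS1, FADS2 and DGAT2). Their median log2 fold change was 0.27, beside -0.03 for the other 32. The 50 tested genes nearest to each of the 8 had medians from 0.28 to 0.40, and 4 of the 8 lay above the median of their own neighbours. For the other 32 those medians ran from -0.24 to 0.28, and 15 of the 32 lay above them. The split by these chromosomes was not among the planned comparisons and is a description. Whether copy number differed between the clones was not tested.

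Levels per kilobase of exon in sgControl placed FASN first, at 251 CPM per kb, followed by SCD at 214 and ACLY at 106. FDPS and SREBF1 both stood at 70.8 CPM per kb, the highest of the sterol enzymes and of the regulators. INSIG1 stood at 12.2, HMGCS1 at 11.1 and DGAT2 at 1.63 CPM per kb, where DGAT1 stood at 26.5. In sgRFX6, DGAT2 at 3.01 CPM per kb was still below DGAT1 at 19.5. STARD4 was the lowest tested member, at 0.947 CPM per kb.

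Genes beside the members in lipid metabolism were read from the same fit. Of 62 listed, 57 were tested, and 0 passed edgeR's test in either direction (3.74% of all genes) or DESeq2's (6.44%). At an unadjusted p under 0.05 there were 5, a smaller share than the 15.6% of all genes, namely NPC1 (0.49), which exports sterol from lysosomes, PLIN2 (0.44), a lipid droplet coat, ELOVL7 (0.93), an elongase, LPIN2 (0.53), a phosphatidate phosphatase, and AGPAT4 (-0.78), an acyltransferase. The median was 0.11, with 37 positive and 20 negative, beside 0.02 over all genes. By list, the medians were 0.04 for SREBP processing, 0.26 for sterol uptake, export and LXR, -0.13 for sterol esterification and storage, 0.07 for the isoprenoid branch, 0.12 for acyl-CoA supply and elongation and 0.03 for other glycerolipid synthesis. Limma-voom with sample quality weights called 15 of the 57, beside 31.1% of all genes. Of these, 14 were higher in sgRFX6, a larger share of the 57 than the 2329 called higher among 12839 genes. The GC-corrected fit called 1, AGPAT4, lower (adjusted p = 0.041), beside 11.3% of all genes. With both directions counted together, none of these shares was above that of all genes. Only the share called higher by limma-voom was.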

How the data were processed

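Per the labels, total RNA was isolated with Trizol and sequenced by Illumina. The authors deposited 1 table of raw counts per gene, not normalised. The submitters' processing notes name GRCh38 (hg38). The aligner and counting program are not given in the sources used here. The control columns are named cas and were taken as sgControl, the only control group, and the others name guide sg3. A row without a gene name, at most 9.17e-05% of a library, was left out.

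Counts were tested with edgeR 4.0.16 in R 4.3.3 (filterByExpr, minimum count 10 and total 15, TMM, quasi-likelihood test, no covariates), with Benjamini-Hochberg adjustment over 12839 genes, threshold 0.05. The common biological coefficient of variation was 0.269. Levels are TMM-scaled CPM. On simulated counts with 200 genes changed 4-fold among 12913, 96% were recovered, 5.42% of calls were false, and 0 genes were called where none changed. The simulation gave every gene the common coefficient of variation and held no GC trend. Changes as small as those of the members were not simulated, so the recovery does not apply to them. Intervals cover the spread between libraries, and the 3-count floor covers counting error only.

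GENCODE release 29 gave positions, exon lengths and GC content, with values for 12002 tested genes and all members. The GC correction passed a smooth trend per library (span 0.3) to edgeR as offsets, and the regional correction did the same with the median over the 50 closest tested genes. Also tried were DESeq2 1.42.0, limma-voom (3.58.1) with sample quality weights, RLE factors, no composition scaling, robust dispersion, no filter, at least 1 CPM in 3 libraries, a replicate block and leaving out each library.

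Members, lists and tests were chosen with earlier results of these data known. Values per library are given for members with an unadjusted or adjusted p under 0.05, those whose groups do not overlap by at least 0.5, and a fixed set of 11 (HMGCS1, SQLE, SREBF1, SREBF2, SCAP, INSIG1, INSIG2, ACLY, ACACA, FASN, SCD). DHCR7 and DGAT1 were added after their values were seen, as were the 5 neighbours named at an unadjusted p and AGPAT4.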

Additional observations from a re-analysis of the deposited data

How the results depend on the processing

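No member passed under RLE factors, library size only, robust dispersion, either other filter, the replicate block, the regional correction or any of the 6 fits without 1 library. Members passing numbered 1 with DESeq2, 11 with limma-voom, 3 with the GC correction and 1 with the replicate block and GC correction together. Over all genes, 480 calls became 908, 3998, 1457 and 861 under these, and 212 to 718 with 1 library left out (212 without sgControl library 3). Of the neighbours, 15 passed with limma-voom and 1 with the GC correction. The sterol enzymes' median, -0.002 with all libraries, lay between -0.02 and 0.07 under the other fits of all libraries and between 0.02 and 0.26 with 1 library left out (0.26 without sgControl library 1). The causes of these changes were not tested.

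Signs near 0 were not stable. HMGCS1 turned positive with RLE factors (0.01), DESeq2 (0.001), the stricter filter (0.04), the block (0.10), the regional correction (0.07) and block with GC correction (0.02), and ran from -0.33 to 0.43 with 1 library left out. INSIG2 turned negative with limma-voom (-0.23), the GC correction (-0.07), the regional correction (-0.003) and block with GC correction (-0.04), and ran from -0.23 to 0.28. SCAP turned positive with limma-voom (0.10), the stricter filter (0.02), the GC correction (0.01), the regional correction (0.06) and block with GC correction (0.01), and ran from -0.16 to 0.20. SREBF1 and SREBF2 each gave 0.06 with limma-voom, and FASN ran from -0.31 to 0.02. The cause was not tested.

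Deviations from the group means in same-numbered libraries had correlations across genes of -0.406, 0.174 and -0.0867. Differently numbered libraries gave values from -0.454 to 0.565. Because libraries also differed along GC content, these correlations cannot show whether same-numbered libraries were paired. With the number as a block, 0 members passed. The precision was limited by 3 libraries a group, with a median SE of 0.24 among members.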
